A study of Mus musculus with 3 samples.

Results

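The wide NUR77 regions are the 766 stretches of the mouse genome, 500 bp or more across, in which all 3 replicates of an HA-NUR77 ChIP-seq experiment had a peak. They were selected on peak position and width: overlapping or abutting peaks of the 3 replicate lists were joined, regions on chromosomes 1 to 19 with a peak from every replicate were kept, and those whose joined width reached 500 bp were taken. This gave 766 of 3555 kept regions (21.5%, 95% Wilson interval 20.2 to 22.9%), and of 12580 joined regions in all. The other 2789 kept regions were narrower. Because the rule used the position and width of the peaks, the width, the number of peaks and the caller score of the members are given as a description and without a test, except where a replicate was left out of the split by width.

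Chromatin immunoprecipitation followed by sequencing (ChIP-seq) finds the places where a protein sits on the genome, and a peak is a stretch where the caller found more reads than its background model allows. NUR77, encoded by Nr4a1, is an orphan nuclear receptor of the NR4A family that is induced quickly by many stimuli and takes part in metabolic gene regulation in muscle and in immune cells. As a monomer it recognises a nerve growth factor-induced response element, as a pair of molecules it recognises a palindromic element, and with the retinoid X receptor it can bind direct repeats. A peak around a single short site is about as wide as the DNA fragments allow, so a wide peak can hold a strong site, several sites or signal of another kind, and peak width alone does not tell these apart.

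All samples were C2C12, a mouse myoblast line, carrying the doxycycline-inducible pINDUCER20b-HA-NUR77 construct as a stable line. There was 1 group of 3 replicates: cells received doxycycline at 1 µg/mL from 24 h after seeding for 18 h, were crosslinked with disuccinimidyl glutarate and then with formaldehyde, and chromatin of about 200 bp was precipitated with an antibody against the HA tag. The tagged receptor was thus overexpressed from a construct and not measured at its native level, and no uninduced or input library was analysed here. Nothing in the labels ties the replicates to separate cultures or the stable line to 1 clone, so the spread between replicates may be technical. Peak positions alone do not allow a check of the cell type. The 3 lists held 4468 to 10817 peaks with median widths of 300 to 336 bp. Read depth is unknown for all 3 lists. No mm9 sequence or annotation was used, so regions are given by position and not by gene, exon, intron or bases. All positions are in build mm9 and count from 1.

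Most members were only slightly above the threshold. Their joined width had a median of 525 bp (quartiles 502 and 555.75 bp) and a maximum of 1216 bp, compared with a median of 403 bp (366 and 450 bp) in the narrower regions. Exactly 500 bp was reached by 169 members (22.1%), 305 lay between 501 and 549 bp, 168 between 550 and 599 bp, and 98 between 600 and 699 bp. A further 17 were 700 to 799 bp wide and 9 were 800 bp or wider. Just outside the threshold stood 12 regions of 499 bp, whose own peaks had median widths of 387, 450 and 425 bp in replicates 1, 2 and 3. The 169 members of exactly 500 bp had median own widths of 400, 400 and 500 bp in the same order. Over wider windows, the 76 regions of 490 to 499 bp had medians of 350, 400 and 450 bp, and the 294 members of 500 to 509 bp had 400, 450 and 500 bp.

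**Figure D1:**
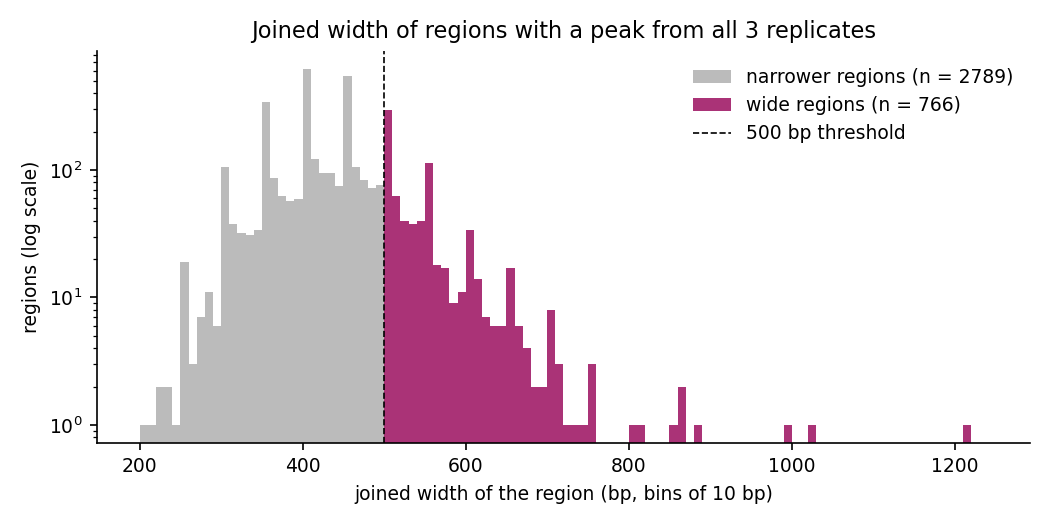
Histogram of the joined width (bp, x axis, bins of 10 bp) of the 3555 kept regions on a log count axis, with the 2789 narrower regions in grey and the 766 wide regions in purple. Counts pile up at multiples of 50 bp and fall off steeply above 500 bp, with 9 regions of 800 bp or more.

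Almost no member arose from several peaks of 1 replicate being strung together. In 765 of the 766 members each replicate contributed exactly 1 peak, and all 2789 narrower regions also held exactly 3 peaks. The exception lay on chromosome 1 from 85258336 to 85259363, where replicates 1 and 2 had single peaks of 450 and 750 bp and replicate 3 had 2 peaks, of 450 and 200 bp. No other region of the kept set had more than 3 peaks, so the count of peaks did not set members apart from narrower regions.

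Replicate 3, the longest list, most often had the widest peak of a member. Inside members the median peak width was 400 bp in replicate 1, 450 bp in replicate 2 and 500 bp in replicate 3, compared with 300, 350 and 400 bp in the narrower regions. A peak of at least 500 bp of its own was present in 133 members (17.4%) in replicate 1, 225 (29.4%) in replicate 2 and 543 (70.9%) in replicate 3. Replicate 3 had the widest peak, alone or tied, in 630 members, whereas replicate 2 did in 238 and replicate 1 in 135. This count was not made over narrower regions. Peaks of replicate 3 reached both edges of the region in 26.8% of members and 27.1% of narrower regions, so this lead was not particular to members. In 339 members (44.3%) only replicate 3 reached 500 bp, in 58 only replicate 2 and in 17 only replicate 1. Replicates 2 and 3 both reached it in 95 members, replicates 1 and 3 in 44, and replicates 1 and 2 in 7. All 3 replicates reached it in 65 members (8.49%). In the other 141 (18.4%) none did, and the region passed 500 bp because the peaks were shifted against each other. Without replicate 3, 345 regions shared by the other lists reached 500 bp.

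These classes differed in score. Each peak carries a score from the authors' caller, whose statistic is not stated and which was ranked within its own list as a percentile. The 65 members wide in all 3 replicates had a median joined width of 593 bp and a median mean percentile of 97.5. The 141 members with no peak of 500 bp had a median joined width of 514 bp and a median mean percentile of 78.7. The 339 members wide in replicate 3 alone had the lowest median joined width of these classes, 506 bp, at a percentile of 87.2.

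In the median member, the stretch covered by all 3 replicates took up most of the region, though single members ranged from no common base to 675 bp. This stretch had a median of 367 bp in members and 251 bp in narrower regions, or 69.7% and 66.3% of the joined width. In 234 members (30.5%) the joined region was no wider than its widest single peak, close to the 32.4% among narrower regions. The joined region was wider than its widest peak by a median of 18 bp in members and 9 bp in narrower regions. The midpoints of the peaks in a region lay within a median of 60 bp of each other in members and 47 bp in narrower regions, and at the 90th percentile within 156 and 91 bp. The largest midpoint range was 625 bp among members and 227 bp among narrower regions.

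A stretch of 500 bp or more common to all 3 replicates was found in 13 members. The longest, 675 bp, was on chromosome 3 from 14787275 to 14788026. Peak widths there were 700, 750 and 700 bp, and scores 898.25, 1554.36 and 1344.91, in replicates 1, 2 and 3. A region on chromosome 9 from 61493596 to 61494246 shared 600 bp, with widths of 650, 650 and 600 bp and scores of 874.48, 1160.85 and 1128.78. In both, the 3 replicates drew nearly the same outline at scores in the top 1% of their lists. A region on chromosome 6 from 149082741 to 149083590 also shared 600 bp but was uneven: widths were 600, 700 and 850 bp and scores 233.8, 316.12 and 639.32.

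At the other end, 6 members had no base covered by all 3 replicates. The widest of them lay on chromosome 2 from 16391049 to 16391908. Replicate 1 had a 250 bp peak at its left end (16391049 to 16391298) and replicate 2 a 250 bp peak at its right end (16391659 to 16391908), while replicate 3 had a single 700 bp peak (16391095 to 16391794) that touched both. The scores were 246.39, 393.62 and 303.65, all above the 85th percentile of their lists. The other 5 lay on chromosome 3 (89875900 to 89876476), chromosome 8 (98376122 to 98376837), chromosome 10 (13684177 to 13684827) and chromosome 17 (35862461 to 35863153, and 44736904 to 44737560). Their replicate peaks were 100 to 650 bp wide. Among narrower regions 2 had no common base.

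The widest region of all was on chromosome 8 from 19945472 to 19946687, 1216 bp across. Its peaks were 1100, 600 and 850 bp wide in replicates 1, 2 and 3, with scores of 1187.3, 1333.06 and 881.3. Here replicate 1, the shortest list, had the broadest peak, and 420 bp were common to all replicates. The region on chromosome 1 described above, with 4 peaks, followed at 1028 bp, and only 112 bp of it were covered by all replicates. Its best scores were 179.12, 288.63 and 113.34, the last at the 42.3rd percentile of replicate 3.

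The third widest lay on chromosome 5 from 111488059 to 111489053, 995 bp across, with widths of 550, 850 and 950 bp and scores of 398.89, 640.13 and 952.32. The whole peak of replicate 1 lay inside the other 2, giving a common stretch of 550 bp. On chromosome 8, 900 bp after the widest region, a further member from 19947588 to 19948471 spanned 884 bp with widths of 350, 600 and 342 bp. Its common stretch was 66 bp. On chromosome 4 from 13226885 to 13227753, 869 bp across, replicate 2 was the broad one with 850 bp, beside 400 bp in replicate 1 and 500 bp in replicate 3, at scores of 479.41, 901.12 and 902.52. The peaks ended close together on the right, at 13227732, 13227734 and 13227753, while on the left replicate 2 started at 13226885 and the others at 13227333 and 13227254. The region was thus extended to the left by a single replicate.

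The remaining regions among the 10 widest were on chromosome 15 (83095945 to 83096760, widths 500, 400 and 750 bp), chromosome 11 (30304975 to 30305774, widths 600, 650 and 650 bp) and chromosome 16 (45798865 to 45799623, widths 200, 300 and 650 bp), with the chromosome 2 and chromosome 6 regions described above. Of the 10, replicate 3 had the single broadest peak in 5, replicate 2 in 3 and replicate 1 in 1. Replicates 2 and 3 were tied in the chromosome 11 region.

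**Figure D2:**
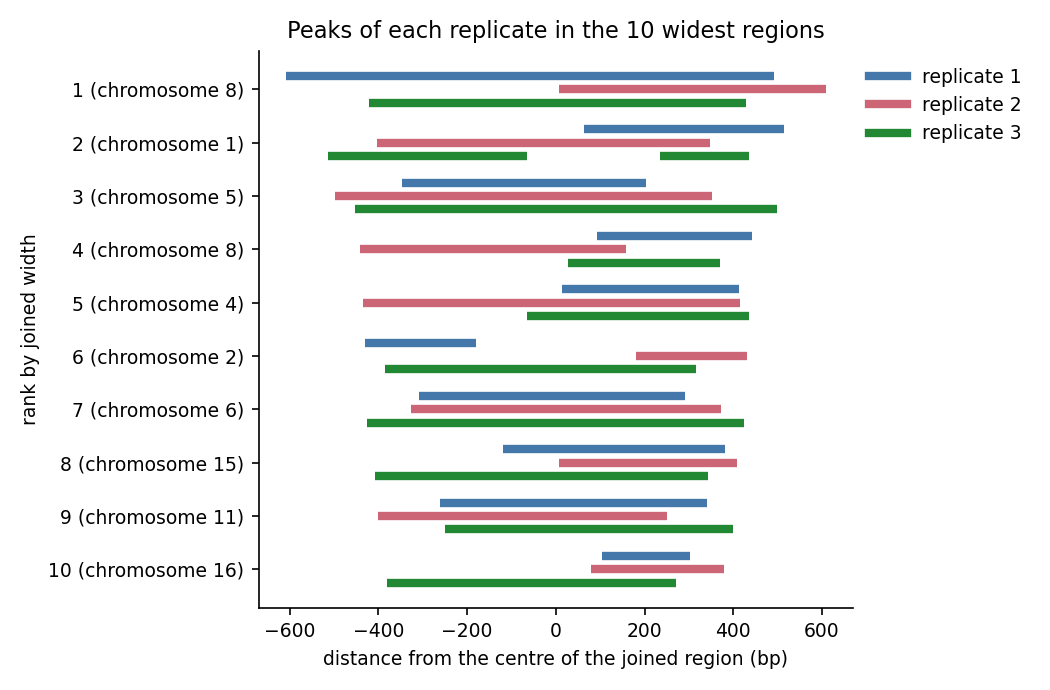
Position of each replicate's peak (coloured bars) in the 10 widest members, as distance in bp from the centre of the joined region, ordered by joined width from 1216 bp at the top to 759 bp at the bottom. The peaks are nested in the region on chromosome 6, whereas on chromosome 2 replicates 1 and 2 lie at opposite ends.

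To ask whether a region wide in some replicates is also wide in another, kept regions were split at 500 bp by 2 replicates. The split used the span from the first start to the last end of their peaks in the region. The peaks of the other replicate were then measured. That replicate did not set the span, but every kept region had to hold a peak of it. Its peak could also bridge peaks of the other 2 that did not touch, as replicate 3 did in the chromosome 2 region without a common base. Split by replicates 2 and 3, 694 regions were wide, and the median peak width in replicate 1 was 400 bp in them and 300 bp in the others. Split by replicates 1 and 3, 644 were wide, with 450 and 350 bp in replicate 2. Split by replicates 1 and 2, 344 were wide, with 500 and 400 bp in replicate 3. The difference was 100 bp in each replicate, 100 ± 0 bp (SD, n = 3), where nearly all widths are multiples of 50 bp. The mean difference was 50 bp with peaks at or above the median score of their list, 133 bp with a threshold of 600 bp, and 150 bp without replicate 1 or without replicate 3. It was still 100 bp when a stretch common to all 3 lists was required. An exact two-sided sign-flip permutation test over the 3 replicates gave p = 0.25, the smallest value that 3 replicates allow, so no comparison of this kind can pass 0.05. In this and the later comparisons with a replicate left out, the 3 differences are not independent. They come from the same kept regions, and each list also enters the splits for the other 2. Of the members, 253 (33.0%) were wide by every pair of replicates.

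**Figure D3:**
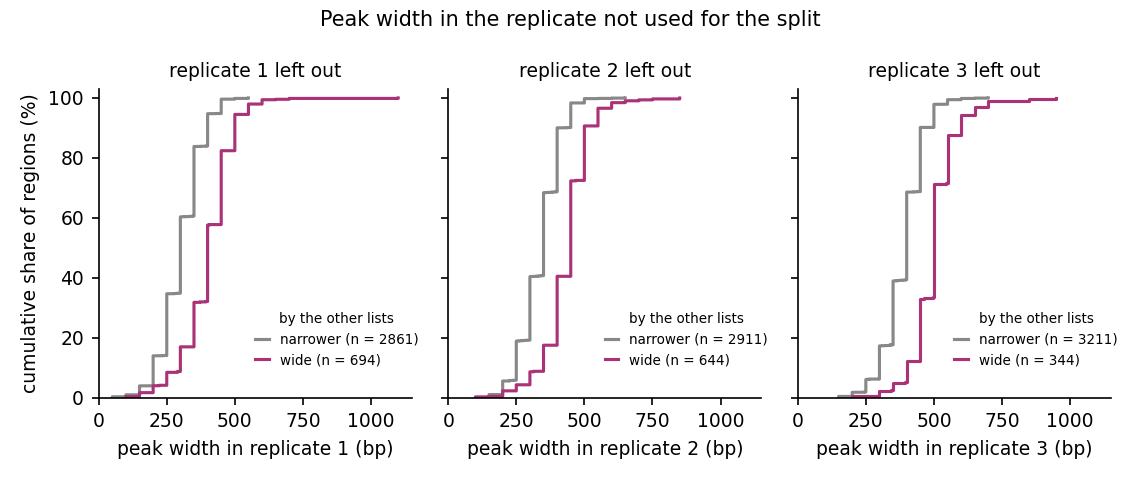
Cumulative share of kept regions (%, y axis) against peak width (bp, x axis) in the replicate left out, for regions wide (purple) or narrower (grey) by the other 2 lists. The wide curve lies to the right of the narrower curve in each replicate, with medians 100 bp apart.

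Wider peaks also had higher scores, so the same comparison was made among regions of like score, within deciles of the score in the left-out replicate. The mean peak width was 402.8 bp in wide and 363.5 bp in narrower regions for replicate 1. It was 434.8 and 389.6 bp for replicate 2, and 499.7 and 440.6 bp for replicate 3. The difference was 39.4, 45.3 and 59.1 bp, 47.9 ± 10.1 bp on average (SD, n = 3, exact two-sided sign-flip permutation p = 0.25). It had the same direction in 3 of 3 replicates. Without matching on score, the same means differed by 99.3, 96.4 and 110.3 bp, 102 ± 7.3 bp on average (SD, n = 3), a comparison added after seeing the data. With a threshold of 600 bp the difference at like score was 75.5 bp, and with score quintiles in place of deciles it was 51.6 bp. Scores can still differ inside a decile, so the matching is not complete. Across the 3555 kept regions, width and score percentile of the same replicate had a Spearman rho of 0.80, 0.79 and 0.77 in replicates 1, 2 and 3. Each pair of values comes from the same peak, so this is a description.

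Members were concentrated among the high-scoring regions. With kept regions ordered by their mean percentile over the 3 lists, 1.97% of the lowest decile were wide (7 of 356), 11.5% of the fifth decile (41 of 356) and 68.5% of the highest (243 of 355, Wilson interval 63.4 to 73.1%). The median joined width went from 350 bp in the lowest decile to 502 bp in the highest. The 15 regions with the highest mean percentile were all members, and of the 100 highest 83 were. The other 17 of these 100 were between 314 and 483 bp wide, so a high score also occurred without a wide region.

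**Figure D4:**
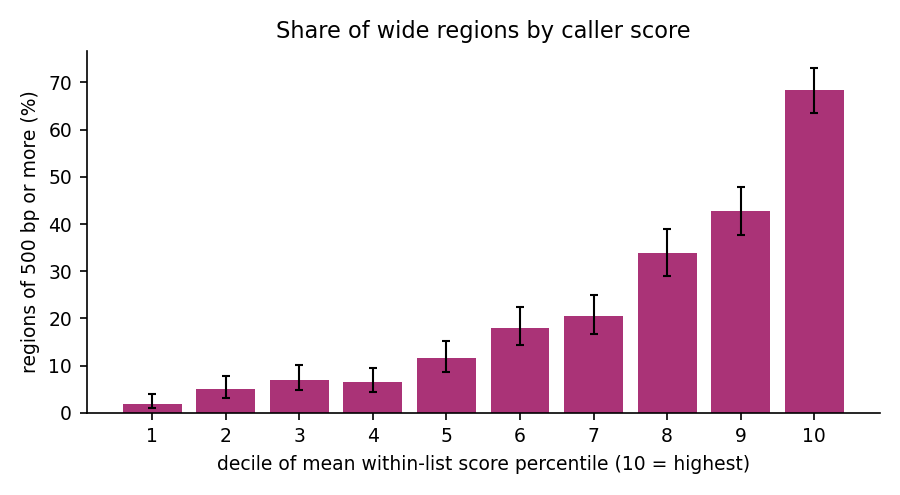
Share of kept regions that are 500 bp or wider (%, bars, 95% Wilson intervals over regions) by decile of the mean within-list score percentile. The share is 1.97% in the lowest decile and 68.5% in the highest.

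By replicate, the median score of members was 233.8 in replicate 1, 341.7 in replicate 2 and 444.1 in replicate 3, and that of narrower regions 117.3, 169.7 and 215.5. The median percentile was 84.1, 90.6 and 93.9 in members and 51.4, 69.4 and 77.4 in narrower regions. In the replicate left out of the split, the percentiles were 84.3 against 52.0 in replicate 1, 91.2 against 70.4 in replicate 2 and 95.49 against 79.99 in replicate 3. The wide regions thus stood higher by 32.2, 20.8 and 15.5 percentile points, 22.8 ± 8.6 on average (SD, n = 3, exact two-sided sign-flip permutation p = 0.25). Percentiles were ranked over each whole list, of 4468, 7756 and 10817 peaks, while a kept region took about 1 peak from each. Peaks in kept regions were thus the smallest part of list 3, and the differences have unlike bases across replicates. The difference was smallest in replicate 3, where the narrower regions already ranked highest. The average was 9.94 points with peaks at or above the median score of their list, 15.7 points with equal numbers of best-scoring peaks and 31.9 points without replicate 1.

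The 5 members with the highest mean percentile were 506 to 555 bp wide. On chromosome 10 from 13703473 to 13704027, 555 bp across, peaks of 500, 450 and 500 bp scored 1354.26, 1796.34 and 1880.01. On chromosome 15 from 44498334 to 44498860, 527 bp across, 3 peaks of 500 bp scored 1215.4, 1580.51 and 1842.63. Peaks of 500 bp in every replicate also made up the regions on chromosome 17 from 46513754 to 46514260 and on chromosome 5 from 150192004 to 150192509, with common stretches of 493 and 494 bp. The fifth, on chromosome 15 from 55637861 to 55638394, had widths of 450, 500 and 500 bp. In these 5 regions 439 to 494 bp were common to all replicates, and none was among the 10 widest. The next 4 by mean percentile were broader, at 586, 752, 588 and 650 bp. This did not hold further down the order. A member on chromosome 2 from 14234045 to 14234548, at a mean percentile of 99.77, was 504 bp wide.

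Low-scoring members were few. Only 31 members (4.05%) had a mean percentile under 50, compared with 812 narrower regions (29.1%). The lowest, on chromosome 14 from 75132257 to 75132822, had peaks of 350, 300 and 400 bp with scores of 82.65, 71.82 and 103.66, and 184 bp in common. The next, on chromosome 15 from 74880311 to 74880844, had peaks of 300, 200 and 400 bp with scores of 70.12, 82.89 and 124.82, and 66 bp in common. It was followed by the chromosome 3 region without a common base, with scores of 82.7, 76.16 and 129.39. On chromosome 8 from 121033108 to 121033607, replicate 3 alone gave the width, with 500 bp beside 150 and 200 bp. The fifth, on chromosome 7 from 97382531 to 97383036, had peaks of 300, 400 and 450 bp. Of these 5 regions, 4 had no peak of 500 bp in any replicate, and their widest single peaks were 56 to 177 bp narrower than the joined region.

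Most broad peaks of a replicate lay in regions that all replicates shared, where a peak of 500 bp makes the region a member by the rule. Replicate 1 had 136 peaks of 500 bp or more in its whole list, of which 133 (97.8%) lay in members. Replicate 2 had 251, of which 225 (89.6%) did. Replicate 3 had 651, of which 543 (83.4%) did, while 78 lay in regions shared with 1 other replicate and 29 in regions of replicate 3 alone. These shares start from unlike bases. The whole lists held 4468, 7756 and 10817 peaks, and 3554 of the 3555 kept regions took 1 peak from each. The share of all peaks lying in kept regions was therefore highest in replicate 1 and lowest in replicate 3. The 36 regions with all 3 replicates on chromosome X, which the rule leaves out, included 4 of 500 bp or more.

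Members had another region within 5 to 100 kb somewhat more often than narrower regions did, and not within 1 kb. Another kept region lay within 10 kb of 120 members (15.7%, Wilson interval 13.3 to 18.4%) and of 336 narrower regions (12.05%, 10.9 to 13.3%). Within 5 kb the shares were 10.1% and 6.49%, and within 1 kb 1.04% and 1.22%. The median distance to the nearest kept region was 80.3 kb for members and 104.4 kb for narrower regions. With a replicate left out of the split, a peak of that replicate lay within 10 kb outside the region for 17.0% of wide and 14.1% of narrower regions in replicate 1. The shares were 26.9% and 22.8% for replicate 2, and 39.0% and 29.5% for replicate 3. The difference was 2.9, 4.1 and 9.5 percentage points, 5.5 ± 3.5 on average (SD, n = 3, exact two-sided sign-flip permutation p = 0.25). It was 14.3 points with a threshold of 600 bp and 1.33 points with 400 bp. With equal numbers of best-scoring peaks per list it was 2.94 points, and with peaks at or above the median score of their list 3.40 points. Without 1 replicate, each split rests on the peaks of 1 list only. The difference was then 7.2 ± 6.4 points without replicate 1, 11.5 ± 10.7 without replicate 2 and 12.1 ± 3.5 without replicate 3 (SD, n = 2).

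Of the 120 members with a kept region within 10 kb, the nearest was itself a member for 41 (34.2%). For the 336 such narrower regions it was a member for 79 (23.5%). Adjacent members can each be the other's nearest, so a pair can enter the count from both sides. These shares were not recomputed without the crowded stretches described below. At any distance, the nearest kept region was a member for 25.2% of members and 21.3% of narrower regions, beside 21.5% of all kept regions being members. Members within 10 kb of each other formed 22 runs holding 51 members, 18 of them pairs. The longest run was 5 members over 15.3 kb on chromosome 8 (19938358 to 19953687), which contains the widest region. The next was 4 members over 6.4 kb on chromosome 1 (85081386 to 85087747), with joined widths of 612, 688, 622 and 584 bp. Its peaks were 250 to 650 bp wide, and their score percentiles spanned 66.7 to 84.7 for replicate 1 and 67.4 to 92.5 for replicate 2. Replicate 3 spanned 1.57 to 77.8, with its lowest value in the first member of the run. Runs of 3 members lay on chromosome 7 (53592681 to 53606086) and again on chromosome 8 (19758672 to 19770421).

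Several of the most unusual members came from crowded stretches. In windows of 100 kb with 10 or more regions shared by at least 2 replicates, which lie on chromosome 8 (19722508 to 20020607) and chromosome 1 (85247114 to 85342285), 13 of 35 kept regions were members (37.1%, Wilson interval 23.2 to 53.7%), compared with 753 of 3520 elsewhere (21.4%, 20.1 to 22.8%). These 13 members included 3 of the 4 widest. Their median peak widths were 550, 469 and 465 bp in replicates 1, 2 and 3, whereas members elsewhere had 400, 450 and 500 bp. Replicate 1 was wider than replicate 3 in 8 of the 13 and in 39 of the 753. Their median percentiles were 84.5, 87.2 and 73.1, against 84.0, 90.7 and 94.0 elsewhere, lowest in replicate 3. Outside these stretches a kept region lay within 10 kb of 14.3% of members and 11.4% of narrower regions.

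By chromosome, the share of kept regions that were wide was highest on chromosome 10. There 100 of 319 regions were members (31.3%, Wilson interval 26.5 to 36.6%), against 20.6% on the other chromosomes together and 16.3 to 25.6% on single ones. Chromosome 13 had the lowest share, 21 of 129 (16.3%, 10.9 to 23.6%). At the score mix of chromosome 10, in quintiles of the mean percentile, the other chromosomes gave 22.8%. Regions are not replicates of a condition and all 3 lists enter each joined width, so this difference was not tested.

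The position of chromosome 10 depended on how width was measured. Peaks of 500 bp or more in single replicates made up 3.45% of its regions in replicate 1, 8.15% in replicate 2 and 21.9% in replicate 3, compared with 3.77%, 6.15% and 14.6% on the other chromosomes. The value was higher than on every other chromosome in replicate 3, where these ranged from 10.4 to 17.9%, and not in replicates 1 and 2. When regions were counted by the median of their 3 own peak widths, at 450 bp or more, chromosome 10 stood at 22.6% (18.3 to 27.5%), within the range of 12.2 to 23.0% over the other chromosomes, and chromosome 16 was highest. This measure took 673 regions, of which 512 were members (76.1% of the 673 and 66.8% of the 766).

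Peak edges in each list fell on a grid of 50 bp whose starting point differed by list and chromosome, and on each chromosome at least 98.1% of the peak starts of a list lay on 1 such grid. On chromosome 10 the 3 grids lay within 5 bp of each other, and 50 of its 100 members were 500 to 505 bp wide. On the 7 other chromosomes whose grids lay within 10 bp, 21.0% of regions were members (18.7 to 23.5%), and on the 11 chromosomes with grids 14 to 30 bp apart 20.4% were (18.7 to 22.1%). The share of members between 500 and 505 bp was 40.0% and 26.4% in these groups. Members thus lay at 500 to 505 bp more often where the grids lay close. Joined widths are set by edges on these grids, so this is a description and not a result about the members. The shares of wide regions had overlapping intervals. The part of the grid in the value for chromosome 10 was not tested.

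**Figure D5:**
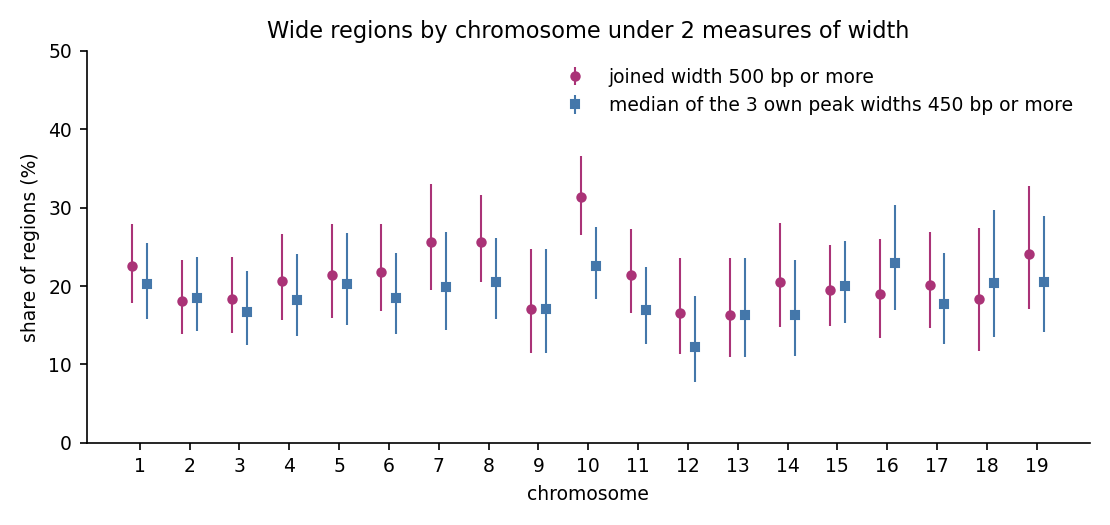
Share of kept regions (%) on each chromosome that are 500 bp or wider after joining (purple circles) or whose 3 own peak widths have a median of 450 bp or more (blue squares), with 95% Wilson intervals over regions. Chromosome 10 stands at 31.3% by joined width and at 22.6% by the median of own widths.

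The authors' merged list covered less of the members than their peaks did. It placed 2268 intervals in the 766 members, 2.96 per region, and 8252 in the narrower regions, also 2.96 per region. The covered length had a median of 450 bp in members and 349 bp in narrower regions, or 83.8% and 85.7% of the joined width. It reached 500 bp in 142 of the 766 members. At the chromosome 2 region without a common base the merged list covered 340 of 860 bp, and at the widest region 914 of 1216 bp. On chromosome 4 from 13226885 to 13227753 it covered 481 of 869 bp. In these regions the covered length equalled the bases lying in peaks of at least 2 replicates. Such a length cannot exceed the joined width, so the lower cover is a description and not an independent measure of the members. Whether the intervals overlap each other was not tested, so their number is not a count of separate sites.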

How the data were processed

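HA-NUR77 ChIP-seq was analysed in 3 replicates of 1 group. Each replicate has a deposited list of peak positions with a score, whose peak names carry MACS. Per the submitters' processing notes, mm9 was the build. For the caller, its version, settings and control were not given in the sources used here. Which statistic the deposited score holds was not stated, so scores were ranked within a list only (0 to 100) and printed as deposited. Peaks were joined in Python 3.11.15 with pandas 2.3.3 and NumPy 2.4.6; bedtools 2.31.1 gave identical counts. Shares have 95% Wilson intervals, which reflect only counting error across regions. Held-out differences were tested by an exact two-sided sign-flip permutation over replicates. Only the width differences were checked on simulated lists, in which score was drawn independently of width. The score, peak number and neighbour differences were not checked in this way. Regions were named by rule as the 10 widest, the 5 highest and 5 lowest by mean percentile, and the 5 with most peaks. The chromosomes with the highest and lowest share were also named by rule. Others were chosen after their values were seen: members with the longest or no common stretch, runs, and members ranked below the 5 highest. The members and rules were chosen with earlier results of these data known. Threshold, joining, score filter, list length and replicates were varied. The removal of crowded stretches or of chromosome 10, the use of own widths and the means without score matching were chosen after seeing the data.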

Additional observations from a re-analysis of the deposited data

How the results depend on the processing

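The number of wide regions follows its threshold: 2656 (74.7% of kept regions) at 400 bp and 124 (3.49%) at 600 bp. Without 1 replicate, requiring both remaining lists, the number ranged from 345 to 814 and the share from 9.27% to 16.5%; the lowest of each was without replicate 3. The share was 34.2% with peaks at or above the median score of their list, 27.0% with equal numbers of best-scoring peaks and 18.9% by own widths of 450 bp, chosen after seeing the data; fewer low-scoring peaks entered the first 2 by construction. The share of regions with 2 or more peaks of the left-out replicate differed by 0.0969 percentage points between wide and narrower regions. This difference was 0 with peaks at or above the median score, with equal numbers of best-scoring peaks and without the crowded stretches (also chosen after seeing the data), and 0 to 0.882 without 1 replicate. Over the alternatives run, the left-out width difference ranged from 50 to 150 bp, that at like score from 42.0 to 75.5 bp with matching, the score difference from 9.94 to 31.9 points and the neighbour difference from 1.33 to 14.3 points; 0 of these reversed direction. The smallest p that 3 replicates allow is 0.25, so no test could pass its threshold under any alternative. Read depth behind the lists is unknown, so how far it limits widths and scores was not tested.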
